A study of Homo sapiens with 30 samples.

Results

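The genes described here encode receptors for C5a, epinephrine and vasoactive intestinal peptide (VIP): C5AR1, C5AR2, ADRA1B, ADRB1 and VIPR1, 5 of the 63138 genes in the count table of the study. They were chosen by symbol with earlier results of these data known, so the tests of these genes are not independent of the data. VIPR1 was chosen because those results showed it lower with epinephrine and in the vesicle control than in unstimulated cells. Its levels in Control, epinephrine and EV-Control thus entered the choice, and since each comparison uses one of these groups, all VIPR1 differences are given as a description, with no test.

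RNA was sequenced from the human cell line hCMEC/D3, which was immortalised from endothelium of brain microvessels and often stands in for the blood-brain barrier in culture, in 30 libraries that form 10 groups of 3, all at 12 h. In the direct groups the cells received serum-free medium (Control), 25 ng/mL TNF⍺ (here TNF), 10 ng/mL IL-1β (here IL1b), 50 ng/mL of the complement fragment C5a, or 200 nM epinephrine. In the vesicle groups cells of the same line were given extracellular vesicles that had been enriched from culture supernatants after each of those treatments, and each group is named for it with the prefix EV. The amount of vesicles given is not stated in the sources used here, and all groups are the same cell line. No vesicle group went without vesicles. Between EV-Control and Control, the vesicles thus cannot be told apart from any other difference between the vesicle and direct groups. The labels do not say that the 3 libraries of a group came from separate cultures, so the p-values measure only the spread between these libraries, which may be technical.

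All 5 genes encode receptors that cross the membrane and signal through G proteins or arrestins. C5AR1 is the main signalling receptor of C5a and couples mostly to Gi, whereas C5AR2 binds C5a without productive G protein coupling and recruits arrestins. ADRA1B is an alpha-1 adrenoceptor that couples to Gq and calcium release, ADRB1 is a beta adrenoceptor that couples to Gs and raises cAMP, and VIPR1 (the VPAC1 receptor) raises cAMP through Gs when it binds VIP or the related peptide PACAP. In endothelium such receptors are known to set junction tightness and vessel tone. Once activated, many are taken up from the membrane, a step that messenger RNA does not show.

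All genes lie on the forward strand in GENCODE 29 (GRCh38). ADRA1B (ENSG00000170214) spans chromosome 5 from 159865080 to 159972544, and ADRB1 (ENSG00000043591) spans chromosome 10 from 114044056 to 114046908. The C5a receptor genes are neighbours on chromosome 19, C5AR1 (ENSG00000197405) from 47290023 to 47322066 and C5AR2 (ENSG00000134830) from 47332147 to 47347327. VIPR1 (ENSG00000114812) spans chromosome 3 from 42489299 to 42537573. On the opposite strand VIPR1 is overlapped by the antisense gene VIPR1-AS1 over 844 exon bases. ADRA1B also holds annotated genes on the opposite strand, LINC01847 and GAPDHP40, that share 0 exon bases with it.

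VIPR1, ADRA1B and ADRB1 were each lower than Control in TNF, IL1b and epinephrine, so the 250 bases before their RefSeq start sites (GRCh38.p14, forward strand, 5′ to 3′) are printed here to show what precedes each start. Capitals mark a half-site of the cAMP response element, TGACG or its other strand CGTCA.
VIPR1, upstream start, chr3:42489049-42489298: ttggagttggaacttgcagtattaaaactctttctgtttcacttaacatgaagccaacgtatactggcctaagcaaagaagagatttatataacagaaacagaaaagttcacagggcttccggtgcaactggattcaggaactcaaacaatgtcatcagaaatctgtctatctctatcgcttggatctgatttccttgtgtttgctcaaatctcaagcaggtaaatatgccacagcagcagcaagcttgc
VIPR1, downstream start, chr3:42502393-42502642: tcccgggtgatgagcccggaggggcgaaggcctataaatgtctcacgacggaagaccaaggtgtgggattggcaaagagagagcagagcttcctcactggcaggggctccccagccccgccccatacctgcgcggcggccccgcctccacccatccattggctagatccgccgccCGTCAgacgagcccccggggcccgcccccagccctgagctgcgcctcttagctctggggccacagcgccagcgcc
ADRA1B, chr5:159916232-159916481: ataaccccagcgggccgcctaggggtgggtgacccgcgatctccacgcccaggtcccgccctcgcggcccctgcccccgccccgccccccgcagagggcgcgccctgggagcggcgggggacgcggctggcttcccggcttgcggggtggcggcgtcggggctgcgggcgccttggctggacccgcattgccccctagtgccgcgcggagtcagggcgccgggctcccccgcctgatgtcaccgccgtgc
ADRB1, chr10:114043616-114043865: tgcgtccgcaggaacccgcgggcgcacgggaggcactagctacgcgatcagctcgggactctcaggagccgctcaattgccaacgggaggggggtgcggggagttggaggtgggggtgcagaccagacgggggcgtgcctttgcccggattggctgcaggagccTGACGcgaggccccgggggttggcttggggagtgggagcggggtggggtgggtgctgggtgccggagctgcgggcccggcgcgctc
The half-site was found 1 time before the downstream VIPR1 start, at base -75, and 1 time before the ADRB1 start, at base -86. It was found 0 times in the windows of ADRA1B, of the upstream VIPR1 start, of C5AR1 and of both C5AR2 starts. Among all 35116 windows of this length in the table, 21.2% held the half-site on either strand. The upstream VIPR1 window was 40.4% G and C with 3 CpG, whereas the downstream VIPR1, ADRA1B and ADRB1 windows were 69.2%, 79.6% and 72.8% G and C with 19, 33 and 24 CpG. The GC box GGGCGG (other strand CCGCCC), which 42.6% of all windows held, was found 3 times each in the downstream VIPR1 and the ADRA1B windows and 0 times in that of ADRB1. These matches describe letters only, and gene-level counts do not show which VIPR1 start was used.

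Each library held between 16643961 and 22112326 counts. A count of 0 allows up to 3 counts, which is 0.138 to 0.2 CPM in one library and 0.00541 CPM over all 30. These limits cover counting error only. CPM express a count relative to the library total, after scaling of the totals by trimmed mean of M-values factors. The endothelial identity on the labels was checked with lists of marker genes: 11 of 12 endothelial markers had a median of at least 1 CPM, and their summed level ran from 848 to 1300 CPM. By group this sum was 1230 to 1280 CPM in Control and 1250 to 1300 with TNF. It was 954 to 990 CPM with IL1b, 961 to 1020 with C5a and 1040 to 1100 with epinephrine. In EV-Control it was 855 to 884 CPM, and in the other vesicle groups 848 to 986. Single endothelial markers differed between groups as well: CLDN5 stood at 44.4 to 51.1 CPM in Control and 14.1 to 28 in the other libraries, PECAM1 at 258 to 287 in Control and 145 to 151 in EV-Control, and ESAM at 24 to 24.7 in Control and 10.7 to 13.1 in EV-Control. Of 8 leukocyte markers 1 had a median of at least 1 CPM (CD14, 1.77 CPM), and their sum ran from 1.73 to 4.72 CPM, which bears on the C5a receptors because leukocytes carry them. Markers listed for other cell types were present in part: 5 of 8 for pericytes and smooth muscle (CSPG4, 336 CPM), 2 of 6 for astrocytes (GJA1, 143 CPM), 2 of 6 for neurons (MAP2, 36.3 CPM) and 3 of 6 for epithelium (KRT18, 262 CPM), while the medians of AQP4, SLC1A2, KCNJ8, ABCC9 and EPCAM were 0. Their summed levels differed between groups: the neuronal sum was 43.1 to 53.9 CPM in Control against 123 to 135 with TNF, the astrocyte sum 126 to 143 against 264 to 281, the pericyte sum 371 to 423 against 465 to 485, and the epithelial sum 265 to 286 against 164 to 176. With TNF, MAP2 stood at 120 to 132 CPM and GJA1 at 263 to 279 CPM. Other stimuli shifted sums too. The astrocyte sum was 235 to 240 CPM with IL1b and 196 to 202 with epinephrine, and the epithelial sum 353 to 365 with C5a. The pericyte sum was lower than in Control, at 334 to 350 CPM with IL1b, 348 to 370 with C5a and 321 to 350 with epinephrine. The part of these shifts in the receptor differences was not tested. In these bulk libraries, fewer cells with a transcript and less transcript per cell cannot be told apart.

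Levels per kilobase of exon were used to compare genes. Exon length here merges all annotated exons of a gene, which can exceed the length of any transcript in use. On this scale the adrenoceptors stood highest among the 5 genes. The mean level over 30 libraries was 5.31 CPM per kb for ADRA1B, 3.31 for ADRB1, 1.63 for C5AR1, 0.983 for VIPR1 and 0.0403 for C5AR2. VIPR1 ranked below C5AR1 on this scale although its mean CPM was higher (7.26 against 4.81). Their order rests on the merged lengths of 7.384 kb against 2.951 kb. That order held for the 30-library mean and not in every group: VIPR1 stood above C5AR1 in Control (2.68 against 1.61 CPM per kb) and in C5a (1.04 against 0.796). C5AR2 gave 152 counts in all 30 libraries together, with 0 counts in 2 libraries and 3 or fewer in 17, so in 17 of 30 libraries it sat at or under the limit. The other 4 genes had at least 36 counts in every library.

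**Figure D1:**
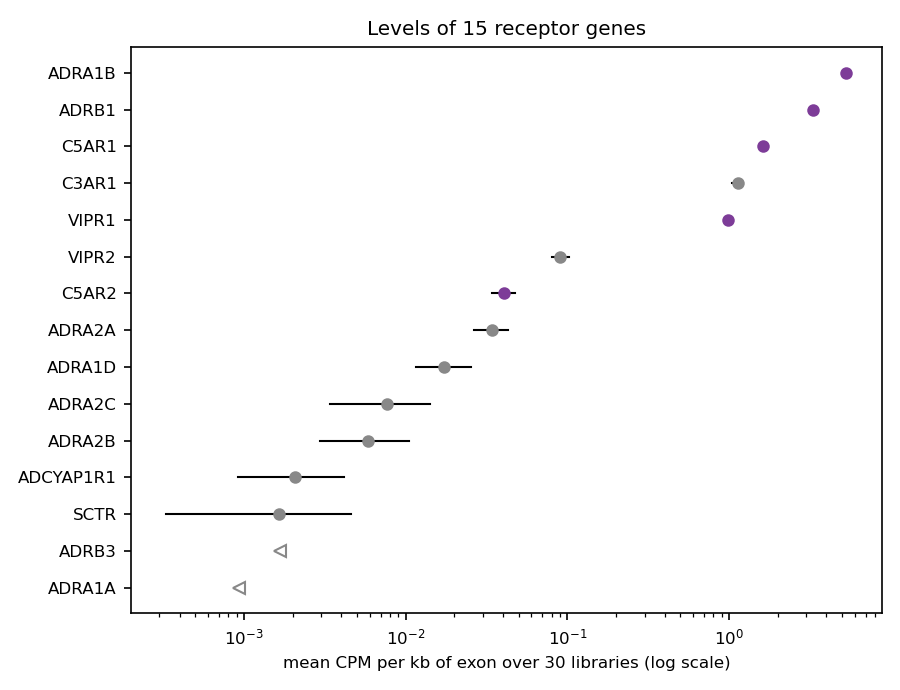
Mean level of 15 receptor genes over 30 libraries, in CPM per kb of exon on a log axis. Lines are exact 95% Poisson intervals of the pooled count, purple points are the 5 genes described, and open triangles mark the limit for genes with 0 counts. ADRA1B and ADRB1 lie near 5.31 and 3.31, C5AR1 and VIPR1 near 1.63 and 0.983, and C5AR2 at 0.0403.

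Relatives of these receptors were looked at on the same scale. C3AR1, the receptor of the complement fragment C3a, stood at 1.13 CPM per kb, a mean raised by the TNF group (5 CPM per kb against 0.651 in Control), and VIPR2, the other VIP receptor, at 0.0905. The alpha-2 gene ADRA2A gave 70 counts over 30 libraries (0.0344 CPM per kb) and the alpha-1 gene ADRA1D gave 27 (0.0173 CPM per kb). ADRA2B and ADRA2C gave 11 and 9 counts, the PACAP receptor gene ADCYAP1R1 gave 8, and the secretin receptor gene SCTR gave 3. ADRA1A and ADRB3 had 0 counts in all 30 libraries, which allows up to 0.00541 CPM each.

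The C5a receptors are taken first. C5AR1 fell when the cells were given its own ligand. It stood at 4.23, 4.48 and 5.51 CPM in the Control libraries (4.74 ± 0.677, SD, n = 3) and at 2.53, 1.90 and 2.61 CPM with C5a (2.35 ± 0.388, n = 3). Every C5a library lay below every Control library, and the mean was 49.6% of that in Control. The log2 fold change was -0.997 (SE 0.19), and edgeR's quasi-likelihood test gave a Benjamini-Hochberg adjusted p of 0.000145. C5a was the lowest of the 10 groups for this gene, and it did not overlap IL1b, the group above it.

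C5AR1 did not pass the test with the other direct stimuli. With TNF it stood at 5.94, 6.82 and 5.77 CPM, all above Control, a log2 fold change of 0.39 (SE 0.17; edgeR adjusted p = 0.0568). With IL1b it stood at 3.56, 3.59 and 3.51 CPM, all below Control, a log2 fold change of -0.40 (SE 0.18; edgeR adjusted p = 0.0636). Both values lay close to the threshold of 0.05: the TNF value passed without replicate 3 of Control (log2 fold change 0.50, edgeR adjusted p = 0.0285), and the IL1b value passed with scaling by total counts (log2 fold change -0.49, edgeR adjusted p = 0.0249) and with a filter at a mean of 50 counts (-0.43, edgeR adjusted p = 0.0392). Over all alternatives the TNF value ran from 0.11 to 0.50, and with one library left out from 0.307 to 0.50. Its size thus depended on the processing. The IL1b value ran from -0.49 to -0.286. With epinephrine, 4.4, 5.20 and 4.13 CPM overlapped Control (log2 fold change -0.04, SE 0.17; edgeR adjusted p = 0.894).

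In the vesicle groups C5AR1 spread widely in the control itself. EV-Control held 6.42, 5.29 and 3.88 CPM (5.20 ± 1.27, n = 3), which overlapped Control (log2 fold change 0.13, SE 0.17; edgeR adjusted p = 0.666). Against that spread no vesicle group stood apart: EV-TNF held 6.20, 4.19 and 5.84 CPM, EV-IL1b 5.31, 5.47 and 5.87, EV-C5a 4.24, 4.10 and 4.04, and EV-Epinephrine 6.33, 6.67 and 6.29. The log2 fold changes against EV-Control were 0.06, 0.10, -0.33 and 0.31, with edgeR adjusted p of 0.883, 0.777, 0.698 and 0.203. The EV-C5a value was negative, as that of C5a itself was, but it lay within the spread of the EV-Control libraries.

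C5AR2, the arrestin-recruiting receptor, was barely detected, and its values are best read as counts. The 3 Control libraries held 3, 7 and 5 counts (0.271 CPM on average). TNF held 2, 3 and 2, IL1b 0, 3 and 0, C5a 2, 1 and 3, and epinephrine 7, 2 and 19. Of the 28 counts with epinephrine 19 came from 1 library, so its mean of 0.451 CPM rests on that library. EV-Control held 15, 16 and 3 counts (0.648 CPM), EV-TNF 2, 2 and 5, EV-IL1b 1, 10 and 8, EV-C5a 3, 8 and 1, and EV-Epinephrine 6, 6 and 7. The exact 95% Poisson interval of the summed count ran from 8.4 to 24.7 for the 15 counts of Control and from 23.5 to 47.5 for the 34 of EV-Control.

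In CPM, C5AR2 was lower with IL1b and with C5a without overlap (highest 0.158 and 0.15, lowest of Control 0.159). As raw counts both groups met Control at 3. Moreover, 3 libraries against 3 cannot go below an exact two-sided permutation p of 0.1. Both comparisons gave that smallest value, which adjusted to 0.36 over the 9 comparisons, and the other exact permutation p-values ran from 0.2 to 0.7. C5AR2 passed the low-count filter only in the fit of all 30 libraries. There EV-Control stood above Control by 1.23 (log2, SE 0.68, edgeR adjusted p = 0.209). Its highest counts were 19 in 1 epinephrine library and 15 and 16 in EV-Control. The tested group thus helped it pass the filter. No C5AR2 comparison passed a test, and the exact tests could not have passed with 3 libraries a group.

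**Figure D2:**
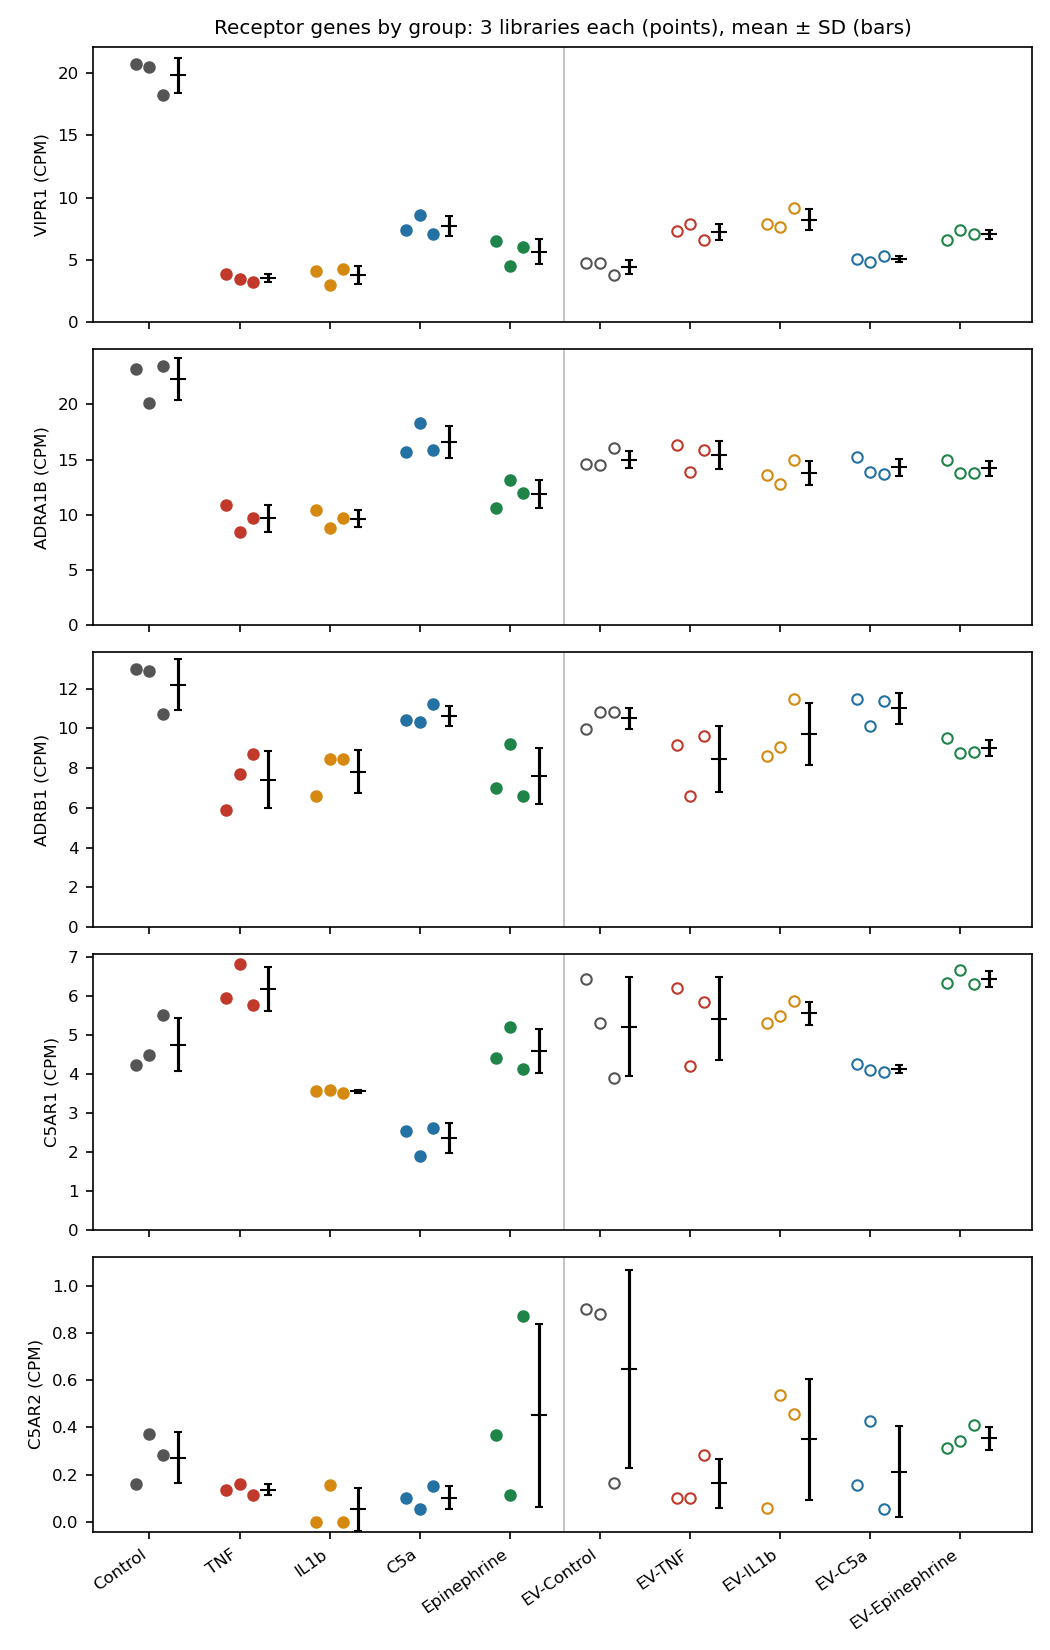
CPM of each receptor gene by group. Points are the 3 libraries of a group (filled for direct, open for vesicle groups) and bars are mean ± SD; each panel has its own scale. The Control libraries of VIPR1 (18.2 to 20.7 CPM) stand above all others of that gene, C5AR1 is lowest with C5a, and C5AR2 stays under 1 CPM.

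Among the adrenoceptors, ADRA1B fell with all 4 direct stimuli, in comparisons that share the same 3 Control libraries. Its Control libraries held 23.2, 20.1 and 23.5 CPM (22.3 ± 1.90, n = 3). Epinephrine, a ligand of this receptor, brought 10.6, 13.1 and 12.0 CPM (11.9 ± 1.27, n = 3), 53.5% of Control, with every library below every Control library. The log2 fold change was -0.89 (SE 0.11; edgeR adjusted p = 8.6e-08). The inflammatory cytokines gave means below that of epinephrine, with overlapping libraries and no test between these stimuli: TNF 10.9, 8.38 and 9.70 CPM and IL1b 10.4, 8.82 and 9.68 CPM, means of 43.4% and 43.3% of Control. Their log2 fold changes were -1.21 and -1.20 (SE 0.11 each; edgeR adjusted p = 2.52e-11 and 4.88e-11). C5a gave the smallest fall, to 15.7, 18.3 and 15.9 CPM (log2 fold change -0.41, SE 0.11; edgeR adjusted p = 0.00373).

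Cells given control vesicles also had less ADRA1B than Control cells. EV-Control held 14.6, 14.5 and 16 CPM (15 ± 0.801, n = 3), a log2 fold change of -0.56 (SE 0.10; edgeR adjusted p = 1.52e-05). From that level the stimulated vesicles did not move it past the test. EV-TNF held 16.3, 13.9 and 15.9 CPM, EV-IL1b 13.6, 12.8 and 15, EV-C5a 15.2, 13.9 and 13.7, and EV-Epinephrine 15, 13.8 and 13.8. All 4 overlapped EV-Control, with log2 fold changes of 0.03, -0.13, -0.08 and -0.08 and edgeR adjusted p of 0.907, 0.456, 0.926 and 0.63. Ranked by mean, Control was the highest of the 10 groups, and it alone was separated from its neighbour in the order, C5a. The vesicle groups filled the range from 13.8 to 15.4 CPM, and epinephrine, TNF and IL1b were lowest.

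ADRB1, the Gs-coupled adrenoceptor, varied less, with the highest group mean 1.64 times the lowest against 2.31 times for ADRA1B. Control held 13, 12.9 and 10.7 CPM (12.2 ± 1.27, n = 3) and epinephrine 7.02, 9.21 and 6.61 CPM (7.61 ± 1.40, n = 3), which did not overlap. The fall was -0.68 (log2, SE 0.14; edgeR adjusted p = 0.000385). With TNF it stood at 5.87, 7.68 and 8.71 CPM (log2 fold change -0.71, SE 0.14; edgeR adjusted p = 8.08e-05), and with IL1b at 6.60, 8.45 and 8.46 CPM (-0.63, SE 0.14; edgeR adjusted p = 0.000348). Falls with epinephrine, TNF and IL1b were thus of similar size for this gene. However, these comparisons share the Control libraries, and the differences between these stimuli were not tested. C5a libraries (10.4, 10.3 and 11.2 CPM) overlapped Control, and the difference did not pass (log2 fold change -0.19, SE 0.14; edgeR adjusted p = 0.347).

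In the vesicle groups ADRB1 did not pass the test. EV-Control held 9.95, 10.8 and 10.8 CPM and overlapped Control (log2 fold change -0.21, SE 0.13; edgeR adjusted p = 0.294). EV-TNF held 9.14, 6.59 and 9.64 CPM, all below EV-Control, and did not pass (log2 fold change -0.32, SE 0.13; edgeR adjusted p = 0.0937). EV-Epinephrine (9.49, 8.77 and 8.80 CPM) also lay wholly below EV-Control without passing (-0.22, SE 0.13; edgeR adjusted p = 0.25). EV-IL1b (8.59, 9.06 and 11.5 CPM) and EV-C5a (11.5, 10.1 and 11.4 CPM) overlapped EV-Control, with log2 fold changes of -0.12 and 0.06 and edgeR adjusted p of 0.611 and 0.963. In the order of the 10 means, every neighbouring pair overlapped.

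VIPR1 had the widest range of the 4 well-detected genes, with the highest group mean 5.61 times the lowest. The highest was Control, whose level entered the choice of VIPR1, so this width is not read as a result. Group means other than Control ran from 3.53 to 8.23 CPM for VIPR1. Its Control libraries held 20.7, 20.5 and 18.2 CPM (19.8 ± 1.37, n = 3), and all 27 other libraries held between 2.96 and 9.17 CPM. In the contrasts it was picked on, epinephrine libraries held 6.50, 4.52 and 6.01 CPM (28.7% of Control; log2 fold change -1.78, SE 0.14) and EV-Control libraries 4.74, 4.79 and 3.83 CPM (22.5% of Control; log2 fold change -2.15, SE 0.14). The same Control libraries serve the comparisons with TNF, IL1b and C5a, so no p-value is given for any of them.

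The lowest VIPR1 group means were those of the cytokines. TNF libraries held 3.87, 3.49 and 3.23 CPM (17.8% of Control) and IL1b libraries 4.12, 2.96 and 4.31 CPM (19.2%). The log2 fold changes were -2.49 and -2.37 (SE 0.15 each). With C5a the libraries held 7.44, 8.62 and 7.08 CPM (39.0% of Control; log2 fold change -1.35, SE 0.13). None of these libraries overlapped Control, and the TNF and IL1b libraries also lay below every epinephrine library.

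Cells given vesicles from IL1b-, TNF- or epinephrine-treated cells had more VIPR1 than cells given control vesicles, and less than Control cells in every library. EV-IL1b libraries held 7.90, 7.62 and 9.17 CPM, EV-TNF 7.36, 7.87 and 6.58, and EV-Epinephrine 6.64, 7.41 and 7.11, all above every EV-Control library. The log2 fold changes against EV-Control were 0.88, 0.71 and 0.66 (SE 0.15 each). EV-C5a libraries (5.07, 4.85 and 5.30 CPM) also lay above EV-Control, by less (log2 fold change 0.19, SE 0.16). EV-Control is a group whose low level entered the choice of VIPR1, so these values too carry no test. In the order of the means, the neighbours Control and EV-IL1b, EV-Epinephrine and epinephrine, and EV-C5a and EV-Control did not overlap, and all other neighbours did.

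The antisense gene VIPR1-AS1 had few counts and was highest where VIPR1 was highest. It held 13, 15 and 14 counts in Control and between 0 and 12 in the other 27 libraries, 0.313 CPM on average. Whether counting used the strand is not given in the sources used here, so reads from this gene and from VIPR1 could be shared over their common exon bases, and that share was not tested. The VIPR1 counts in the same Control libraries were 391, 384 and 324.

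**Figure D3:**
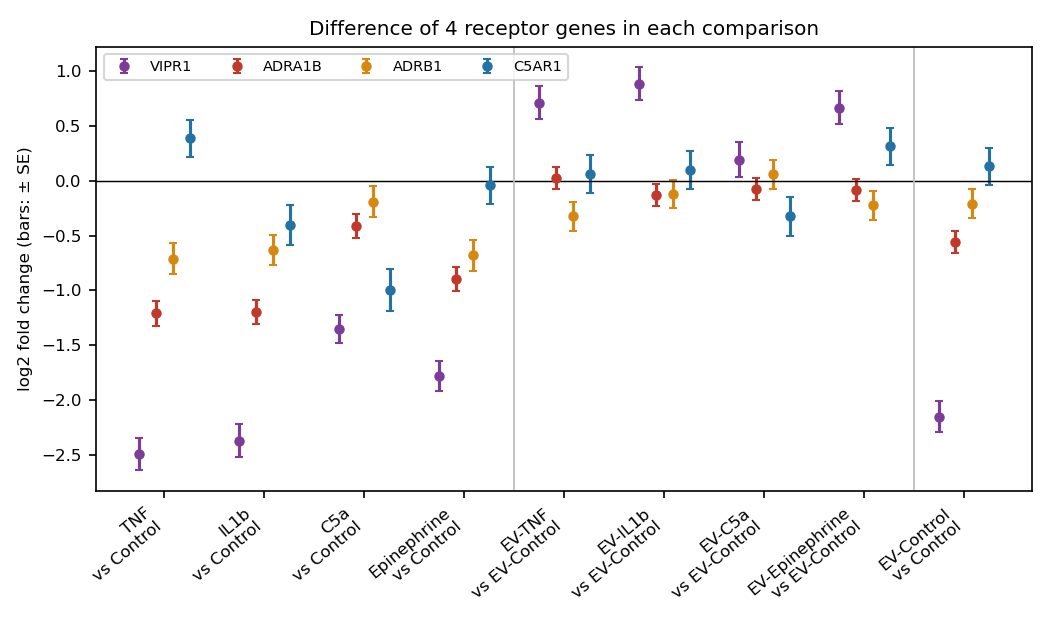
Log2 fold change of VIPR1, ADRA1B, ADRB1 and C5AR1 in each comparison, with bars of ± SE. The direct comparisons on the left lie below 0 for VIPR1 (-2.49 to -1.35) and ADRA1B (-1.21 to -0.41), and those between vesicle groups in the middle run from 0.19 to 0.88 for VIPR1 and from -0.33 to 0.31 for the other genes. The VIPR1 points carry no test, since its control levels entered its choice.

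VIPR1 is left out of the counts of called genes, for the reason given above. The other receptor genes were also chosen with earlier results known, and the direct comparisons share the Control libraries. Their counts beside the shares of all genes are thus a description. Of the other genes, 2 of 3 tested were lower with TNF, where 25.3% of all genes tested were called lower, 27.5% higher and 52.7% in either direction. With IL1b 2 of 3 were lower, against 22.6% of all genes lower, 24% higher and 46.6% in either direction. In both comparisons these were ADRA1B and ADRB1, and a call was common among all genes. With C5a 2 of 3 were lower (ADRA1B and C5AR1) against 10.8% of all genes lower, 11.8% higher and 22.6% in either direction. With epinephrine 2 of 3 were lower (ADRA1B and ADRB1) against 11.8% of all genes lower, 13.5% higher and 25.2% in either direction. With edgeR 0 of 3 were called higher in each direct comparison, and DESeq2 also called 0; at an unadjusted p under 0.05 it was 1 with TNF (C5AR1) and 0 with the other stimuli. Of the called genes, 52.1% were higher with TNF and 51.5% with IL1b, and these shares were 22.7% and 38.7% with scaling by total counts, which moved the median log2 fold change of all genes with TNF from -0.01 to -0.29. The calls of the 3 genes were the same under that scaling, except that C5AR1 was then called lower with IL1b.

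Among vesicle groups edgeR called 0 of the 3 genes in EV-TNF, EV-IL1b and EV-Epinephrine, as did DESeq2, and at an unadjusted p under 0.05 it was 1 in EV-TNF (ADRB1) and 0 in the other groups. That compares with 5.9%, 6.49% and 9.12% of all genes called higher, 7.42%, 8.14% and 10.5% lower, and 13.3%, 14.6% and 19.7% in either direction. In EV-C5a edgeR called 0 of 3 (0 by DESeq2, and 0 at an unadjusted p under 0.05), in a comparison that called 0.0126% of all genes higher, 0.0377% lower and 0.0503% in either direction. In EV-Epinephrine 46.4% of the called genes were higher, against 60.2% with scaling by total counts. For EV-Control against Control 1 of 4 was lower (ADRA1B), against 9.8% of all genes lower, 12.1% higher and 21.9% in either direction. Of all called genes 55.3% were higher there, or 42.6% with scaling by total counts. C5AR2 is 1 of the 4 genes, and EV-Control itself helped it pass the filter.

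Whether a stimulus and its vesicles differed in effect was tested as the vesicle response minus the direct response. For ADRA1B that difference was 1.24 with TNF, 1.08 with IL1b and 0.82 with epinephrine (log2, SE 0.15 each; edgeR adjusted p = 2.27e-10, 2.74e-08 and 1.41e-05). It was 0.34 with C5a and did not pass (SE 0.14; edgeR adjusted p = 0.118). For ADRB1 the difference passed with IL1b alone (0.52, SE 0.20; edgeR adjusted p = 0.0312), and that call was lost without replicate 1 or 2 of Control, replicate 1 of IL1b, replicate 1 of EV-Control or replicate 3 of EV-IL1b. With TNF, C5a and epinephrine it was 0.39, 0.26 and 0.46 (edgeR adjusted p = 0.11, 0.447 and 0.0785). Among all genes tested 44.7% were called with TNF (21.3% higher, 23.4% lower), 35.2% with IL1b (16.9% and 18.3%), 11.9% with C5a (5.87% and 6.05%) and 24.2% with epinephrine (11.7% and 12.5%). Of the genes called, 47.7% and 48.1% were higher with TNF and IL1b, or 76.7% and 62.3% with scaling by total counts.

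For C5AR1 the vesicle response minus the direct response did not pass with any stimulus. It was 0.68 with C5a (SE 0.26; edgeR adjusted p = 0.0799) and passed there without replicate 1 of EV-Control, as did the IL1b value of 0.51 (SE 0.25; edgeR adjusted p = 0.104). With TNF and epinephrine it was -0.32 and 0.37 (edgeR adjusted p = 0.287 and 0.301). For C5AR2 the values ran from -1.62 to 1.37 with SE of 0.96 to 1.4, and none passed (edgeR adjusted p from 0.236 to 0.952). All of them include EV-Control, whose counts helped C5AR2 pass the filter. For VIPR1 the values were 3.20 with TNF, 3.27 with IL1b, 1.55 with C5a and 2.46 with epinephrine. Each contains the contrast of EV-Control with Control on which VIPR1 was picked, and they carry no test.

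The other genes of these pathways were read from lists of ligands and ligand-handling enzymes, desensitisation, Gs and cAMP signalling, Gi, Gq and G12 signalling, and other endothelial receptors of the same superfamily. Of 33 tested genes for Gs and cAMP signalling, epinephrine raised 7 and lowered 9, with a list median of 0.04 (log2) beside 0.01 for all genes. Of all genes tested, 13.5% were higher and 11.8% lower. PDE3A, a phosphodiesterase that breaks down cAMP, was at 0.16 to 0.337 CPM in Control and 0.596 to 1.42 CPM with epinephrine (log2 fold change 1.94, edgeR adjusted p = 0.0183). PDE4D, another cAMP phosphodiesterase, rose from 7.19 to 8.91 CPM in Control to 13.7 to 14.9 CPM (0.83, edgeR adjusted p = 7.27e-06). PKIB, an inhibitor of protein kinase A, and RAPGEF3, the cAMP sensor EPAC1, fell (-0.70 and -0.63, edgeR adjusted p = 0.0146 and 0.00668).

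With C5a the same list held 3 genes higher and 8 lower of 33, with a median of -0.07 beside 0.00 for all genes, of which 11.8% were higher and 10.8% lower. PDE4B fell from 95.4 to 101 CPM in Control to 46.6 to 49.1 CPM (log2 fold change -1.04, edgeR adjusted p = 2.75e-15). ADCY4, an adenylyl cyclase, and RAPGEF3 also fell (-0.82 and -0.62, edgeR adjusted p = 0.0167 and 0.00792), and PDE7A rose (0.51, edgeR adjusted p = 0.000757). In EV-Control against Control 4 of 33 were higher and 5 lower, beside 12.1% and 9.8% of all genes. The largest of these were falls in ADCY4 (-1.52, edgeR adjusted p = 0.000108), RAPGEF4 (-0.91, edgeR adjusted p = 3.4e-09) and RAPGEF3 (-0.82, edgeR adjusted p = 0.000194) and a rise in PDE4D (1.43, edgeR adjusted p = 1.27e-10). PDE4D stood at 29, 21.5 and 15 CPM in the EV-Control libraries, so its rise differed in size between them.

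Of 19 tested genes for desensitisation, 2 were higher and 4 lower with epinephrine, 2 and 2 with C5a, and 2 and 3 in EV-Control against Control. Over all genes 13.5% were higher and 11.8% lower with epinephrine, 11.8% and 10.8% with C5a, and 12.1% and 9.8% in EV-Control. RGS4, which shortens Gq and Gi signals, stood at 135 to 153 CPM in Control and rose with epinephrine (282 to 305 CPM; log2 fold change 1.02, edgeR adjusted p = 3.26e-10), with C5a (265 to 281 CPM; 0.93, edgeR adjusted p = 1.94e-09) and in EV-Control (197 to 293 CPM; 0.72, edgeR adjusted p = 2.87e-05). RGS2, a regulator of Gq, fell with epinephrine (-1.37, edgeR adjusted p = 0.000251) and with C5a (-1.97, edgeR adjusted p = 3.54e-06). ARRB1, which encodes beta-arrestin 1, and RGS12 fell with epinephrine (-0.43 and -0.34, edgeR adjusted p = 0.000389 and 0.0011). RAMP2, a partner of the calcitonin-family receptors, fell with C5a (-0.88, edgeR adjusted p = 0.0211) and was lower in EV-Control (-0.80, edgeR adjusted p = 0.0386), where GRK4, a receptor kinase, was lower too (-0.54, edgeR adjusted p = 0.0126). SNX27, a sorting protein for recycling receptors, rose with C5a (0.44, edgeR adjusted p = 2.48e-06) and was higher in EV-Control (0.36, edgeR adjusted p = 1.77e-05). The comparisons of epinephrine, C5a and EV-Control share the Control libraries, so likeness between them is not read as a result.

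Of 22 other endothelial G protein-coupled receptors, 6 were higher and 3 lower with epinephrine, 4 and 6 with C5a, and 6 and 7 in EV-Control against Control. The shares of all genes higher and lower were 13.5% and 11.8%, 11.8% and 10.8%, and 12.1% and 9.8%. F2RL3, the thrombin receptor PAR4, stood at 4.10 to 4.92 CPM in Control and fell to 0.37 to 0.602 CPM with C5a (log2 fold change -3.12, edgeR adjusted p = 1.1e-09). It also fell with epinephrine (-1.71, edgeR adjusted p = 6.46e-06) and was lower in EV-Control (-0.75, edgeR adjusted p = 0.0237). ADGRF5, an adhesion receptor, fell with epinephrine and C5a and was lower in EV-Control (-0.66, -0.69 and -0.82, edgeR adjusted p = 1.56e-07, 8.38e-08 and 5.87e-12). With epinephrine the Gs-coupled receptors PTGER2 for prostaglandin E2 and ADORA2B for adenosine rose (0.60 and 0.50, edgeR adjusted p = 0.000255 and 1.01e-05). With C5a the protease receptor gene F2RL1 and the lysophosphatidic acid receptor gene LPAR6 fell (-0.93 and -0.91, edgeR adjusted p = 2.47e-14 and 1.64e-06). In EV-Control PTGER2 was higher (0.82, edgeR adjusted p = 1.13e-07), as was the chemokine scavenger receptor gene ACKR3 (1.67, edgeR adjusted p = 0.0346), which stood at 1.32, 1.05 and 0.274 CPM in the 3 libraries. ACKR3 stood at 0.423, 0.32 and 0.0562 CPM in Control (8, 6 and 1 counts), so the 2 groups overlapped at few counts.

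The last lists hold ligands with their enzymes and the Gi, Gq and G12 pathway. Of 18 ligand and enzyme genes listed, 6 were tested with epinephrine and C5a and 7 in EV-Control against Control; DPP4, a peptidase that cleaves several peptide hormones, fell with epinephrine and C5a and was lower in EV-Control (-0.41, -0.37 and -0.45, edgeR adjusted p = 0.000122, 0.000516 and 3.69e-06). MAOA, which degrades catecholamines, rose with epinephrine and was higher in EV-Control (0.27 and 0.26, edgeR adjusted p = 3.27e-05 and 1.14e-05). C5, the precursor of C5a, was lower in EV-Control (-0.55, edgeR adjusted p = 0.000397), while the peptidase gene MME was higher there (0.32, edgeR adjusted p = 9.03e-07) and fell with C5a (-0.23, edgeR adjusted p = 0.00357). Of 21 genes for Gi, Gq and G12 signalling, 3 were higher and 4 lower with epinephrine, 3 and 2 with C5a, and 5 and 2 in EV-Control, beside 13.5% and 11.8%, 11.8% and 10.8%, and 12.1% and 9.8% of all genes. GNAI1, a Gi subunit, was among the higher in each (0.37, 0.19 and 0.56, edgeR adjusted p = 5.33e-06, 0.014 and 1.49e-07). Of the calcium and kinase genes downstream, ITPR1 and PRKCE were higher with epinephrine (0.35 and 0.29, edgeR adjusted p = 0.000665 and 0.000406) and PRKCD lower (-0.28, edgeR adjusted p = 0.000622). PLCB4 and PRKCA were higher with C5a (0.49 and 0.18, edgeR adjusted p = 0.0475 and 0.0335) and in EV-Control (0.91 and 0.26, edgeR adjusted p = 9.71e-06 and 0.000143), and PRKCH was lower in both (-0.14 and -0.39, edgeR adjusted p = 0.0423 and 3.58e-09).

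**Figure D4:**
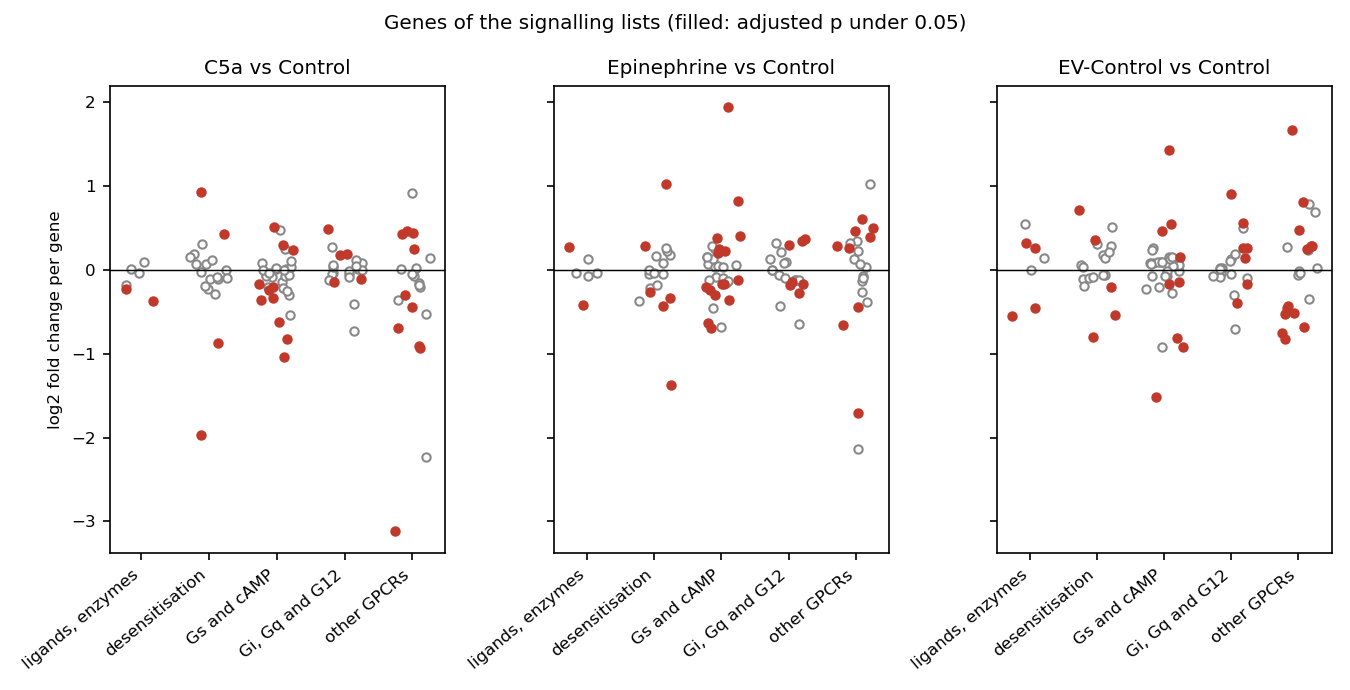
Log2 fold change of each tested gene of 5 lists with C5a, with epinephrine and in EV-Control against Control. Each point is a gene, filled where the edgeR adjusted p was under 0.05; filled points lie on both sides of 0 in most lists, and F2RL3 with C5a (-3.12) is the lowest.

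For each receptor gene, the genes whose group means ran most alike were found by Pearson's r over the 10 group means of log2 CPM, among 12715 other genes (12716 for C5AR2) with a symbol and a mean of at least 1 CPM. These r are descriptions over groups that share a cell line and 1 batch label, with no p. For VIPR1 they were DYSF (r = 0.968), ALS2CL (0.967), RHNO1 (0.957), PPM1F (0.954) and GLOD4 (0.946). For ADRA1B they were COMMD4 (0.98), MXD4 (0.973), TP53I11 (0.97), AGO4 (0.965) and ERP29 (0.963). For ADRB1 they were PKD1P2 (0.939), MXRA7 (0.932), DVL2 (0.922), FLVCR1-DT (0.916) and RNF208 (0.915), of which PKD1P2 is a pseudogene with near-identical copies whose counts are uncertain. For C5AR1 they were SNRPA (0.943), ADAM9 (0.891), FXR1 (0.889), KLF10 (0.887) and UQCRHL (0.879). For C5AR2, with 152 counts in all, they were SLC25A45 (0.906), KLHL7 (0.902), DMBT1 (0.872), SLC45A4 (0.868) and OSER1-DT (0.861), and counting error limits that list most. No receptor gene appeared among the most alike of another, and C5AR2, with a mean of 0.274 CPM, could not under the minimum of 1 CPM.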

How the data were processed

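RNA of 30 libraries was measured by sequencing. Libraries were built with a NEBNext Ultra kit from 1 ng of RNA that had been isolated on QIAshredder and RNeasy columns, per the labels' protocols. The authors deposited raw counts per Ensembl gene, with no normalization. The submitters' processing notes name FastQC, STAR, DESeq2, R 4.4.1 and the build hg38; the counting program, annotation and strand setting are not given in the sources used here. Of 63147 lines, 4 had no gene ID (0.000789% to 0.00164% of counts), 2 gene IDs had no counts and 3 lines were repeats; these were left out.

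Counts were tested in R 4.3.3 with edgeR 4.0.16 (filterByExpr, trimmed mean of M-values, robust quasi-likelihood test, two-sided, Benjamini-Hochberg, threshold 0.05). Direct comparisons were fitted in 15 direct libraries (15908 genes), comparisons between vesicle groups in 15 vesicle libraries (15918), and EV-Control against Control and the vesicle minus direct differences in all 30 (16691). C5AR2 was below the filter in the smaller fits and was compared by exact permutation tests of CPM, 9 in all. Intervals are exact two-sided 95% Poisson intervals. Limits for a count of 0 are 3 counts, lower than the 3.69 counts at the upper end of that interval. Both cover counting error only. Replicate pairs differed beyond sampling noise (chi-square per gene 2.04 to 12.9), so no library was counted as a copy. Exon lengths are those of the merged exons of all transcripts of a gene in GENCODE 29, and promoter windows are from RefSeq.

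The genes named are the 5 receptors in every comparison and, per list, up to 4 genes with an adjusted p under 0.05 and the largest log2 fold change with epinephrine, with C5a and in EV-Control against Control. The receptor genes, lists and tests were chosen with earlier results of these data known. PDE4C has 2 gene IDs and was left out. Alternatives were relative log expression and total-count scaling, DESeq2 1.42.0, no filter or one at a mean of 50 counts, replicate number as a block, only the groups compared or all 30 libraries in the fit, and each library left out. The edgeR fits were also tested on simulated data. Results for 1 further gene of the receptor list are not reported here.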

Additional observations from a re-analysis of the deposited data

Results flagged for a closer look

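The vesicle response of ADRA1B differed from its direct response, by the test of that difference, with TNF (1.24 on the log2 scale, vesicle minus direct), IL1b (1.08) and epinephrine (0.818). The direct stimuli lowered ADRA1B in 3 of 3 libraries each, while the vesicle groups overlapped EV-Control, which itself stood below Control. ADRB1 differed in the same way with IL1b (0.522), a call that 5 of the left-out libraries ended. For VIPR1 the differences were 3.2 with TNF, 3.27 with IL1b, 1.55 with C5a and 2.46 with epinephrine, and these are descriptions, since each contains the contrast of EV-Control with Control on which VIPR1 was picked. EV-Control stood below Control for ADRA1B and VIPR1, and how much of each difference lies in the lower starting level of the vesicle groups was not tested.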

How the results depend on the processing

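Of 201 recomputed counts of called genes, 192 stayed within 1.5 times the value reported, and the other 9 were all of EV-C5a against EV-Control. That comparison called 8 genes, against 5 with total-count scaling, 73 without a filter, 3 with a filter at a mean of 50 counts, 3 with only the groups compared and 3 with all 30 libraries, and from 2 to 175 with one library left out, 175 without replicate 3 of EV-Control. Of the recomputed log2 fold changes of the receptor genes, 855 kept their direction and their side of the threshold. Another 10 passed only in the alternative, 5 no longer passed and 12 changed sign. VIPR1 is counted only among the 855, and its values are a description with no test. It adds 14 values in each direct comparison and each comparison between vesicle groups. It adds 13 in EV-Control against Control and 19 in each vesicle minus direct difference. The 855 thus include many values of a gene picked for its differences. The sign changes came from leaving out one library, in values that had not passed: ADRA1B in EV-TNF against EV-Control (-0.018 to 0.101), C5AR1 with epinephrine (-0.138 to 0.0764), in EV-TNF (-0.108 to 0.235), in EV-IL1b (-0.0704 to 0.273) and in EV-Control against Control (-0.0381 to 0.306), and the vesicle minus direct difference of C5AR2 with C5a (-1.2 to 0.197). The 5 lost calls were all of ADRB1 with IL1b, vesicle minus direct (0.38 to 0.60 with one library left out). Calls gained were those of C5AR1 with TNF (without replicate 3 of Control) and with IL1b (with total-count scaling and with the filter at a mean of 50 counts), of the vesicle minus direct difference of ADRB1 with TNF (0.68 with total-count scaling, edgeR adjusted p = 0.00318) and, with one library left out, with TNF and epinephrine, and of C5AR1 with C5a and IL1b.

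Deviations of libraries with the same replicate number correlated between -0.0539 and 0.0608, so the numbers do not pair the libraries. With the replicate number as a block the calls were 8339 for TNF, 7351 for IL1b, 3503 for C5a, 3914 for epinephrine, 2071 for EV-TNF, 2246 for EV-IL1b, 6 for EV-C5a, 3086 for EV-Epinephrine and 3614 for EV-Control against Control, and no call of a receptor gene changed. Depth limits C5AR2 most, with 0 to 19 counts per library.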
